A study of Mus musculus with 6 samples.

Results

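The IL-4 receptor and alternative activation genes described here, namely the receptor chain genes Il4ra, Il13ra1 and Il2rg, the transcription factor gene Stat6 and the IL-4-induced genes Arg1, Retnla, Chil3 and Egr2, were examined in the transcriptome of bone marrow-derived dendritic cells (BMDCs). The 8 genes were chosen by name for their place in this pathway, each matched 1 Ensembl ID in the count files, and all 8 were among the 21849 genes with enough counts to be tested. The study asked how gene expression at rest differs when noncanonical NF-κB signaling is lost, and sequenced mRNA from unstimulated BMDCs (0 h) of C57BL/6 wildtype (WT) mice and of global Nfkb2-/- mice, with 3 libraries per genotype and 6 in all. Nfkb2 encodes p100, the precursor of the NF-κB subunit p52, and in the global knockout it is missing from every cell of the mouse, so that cells other than DCs in the marrow culture also lacked it. Per the labels, all 6 cultures received GM-CSF at 20 ng/mL for 5 days and then GM-CSF at 20 ng/mL with IL-4 at 10 ng/mL for 4 days. WT and Nfkb2-/- BMDCs had therefore both been exposed to IL-4, no library without IL-4 was analysed here, and the values below are levels in the presence of the cytokine, not responses to it. The age of the mice is not given in the sources used here.

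IL-4 binds the IL-4 receptor alpha chain, encoded by Il4ra, which then pairs with the common gamma chain, encoded by Il2rg, to form the type I receptor, or with the chain encoded by Il13ra1 to form the type II receptor, which also binds IL-13. Janus kinases attached to these chains phosphorylate STAT6, which moves to the nucleus and switches on genes of the alternative activation program of macrophages and DCs. Arginase 1, the resistin-like molecule RELMα encoded by Retnla, the chitinase-like protein Ym1 encoded by Chil3 and the zinc finger factor EGR2 are widely used readouts of this program in the mouse.

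The libraries held between 29863927 and 55623068 counts. Nfkb2 itself measured 215, 154 and 355 CPM (a gene's counts scaled to the size of its library, here with edgeR's TMM factors) in WT replicates 1, 2 and 3 and 44.8, 32.3 and 32.6 CPM in Nfkb2-/- replicates 1, 2 and 3, lower in every Nfkb2-/- library (log2 fold change -2.72, standard error (SE) 0.33, edgeR adjusted p = 0.0307). Of 10 DC markers, 1 was called higher and 0 lower in Nfkb2-/- BMDCs, beside 0.453% and 0.682% of all genes. The marker called was Itgax, which encodes CD11c (187 ± 80.1 against 743 ± 26.5 CPM, SD, n = 3, edgeR adjusted p = 0.0414). By the estimates 7 of the 10 were higher and 3 lower, namely Zbtb46, H2-Aa and Flt3 (log2 fold changes -0.54, -0.25 and -0.17). Summed levels of T and NK cell markers stayed at or below 6.32 CPM and those of B cell markers at or below 4.73 CPM. Nfkb2-/- replicate 1 stood apart, with 47952 genes detected by 1 count or more, whereas the other 5 had 27692 to 33841. WT replicate 3 also stood apart. All 12 macrophage and monocyte markers had their lowest level of the 6 libraries there, with a summed level of 236 CPM against 1099 to 1877 CPM in the other 5, and all 9 mature DC markers had their highest WT level there, with a sum of 18423 CPM against 8850 to 12702 CPM.

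None of the 8 genes was differentially expressed between the genotypes, where a call required more than a 1.2-fold change and, in the quasi-likelihood test of edgeR, a Benjamini-Hochberg adjusted p-value under 0.05. Among all genes tested, 1.14% were called in either direction, 0.453% higher and 0.682% lower in Nfkb2-/- BMDCs. At an unadjusted p-value under 0.05 there were 2 of the 8, Chil3 and Il4ra, against 17.1% of all genes. DESeq2 called 1 of the 8, Chil3, and 8.65% of all genes, and limma voom called 0 of the 8 and 2.23% of all genes. The 3 Nfkb2-/- values did not overlap the 3 WT values for 3 of the 8 genes, with Chil3 higher and Il4ra and Stat6 lower in Nfkb2-/- BMDCs, against 24.7% of all genes, 12.7% higher and 12.0% lower. By edgeR's estimates all 4 IL-4-induced genes and Il2rg lay on the side of higher levels in Nfkb2-/- BMDCs, as did 55.7% of all genes, and Il4ra, Il13ra1 and Stat6 on the side of lower levels. The median log2 fold change of the 8 was 0.49, beside 0.08 for all genes tested.

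**Figure D1:**
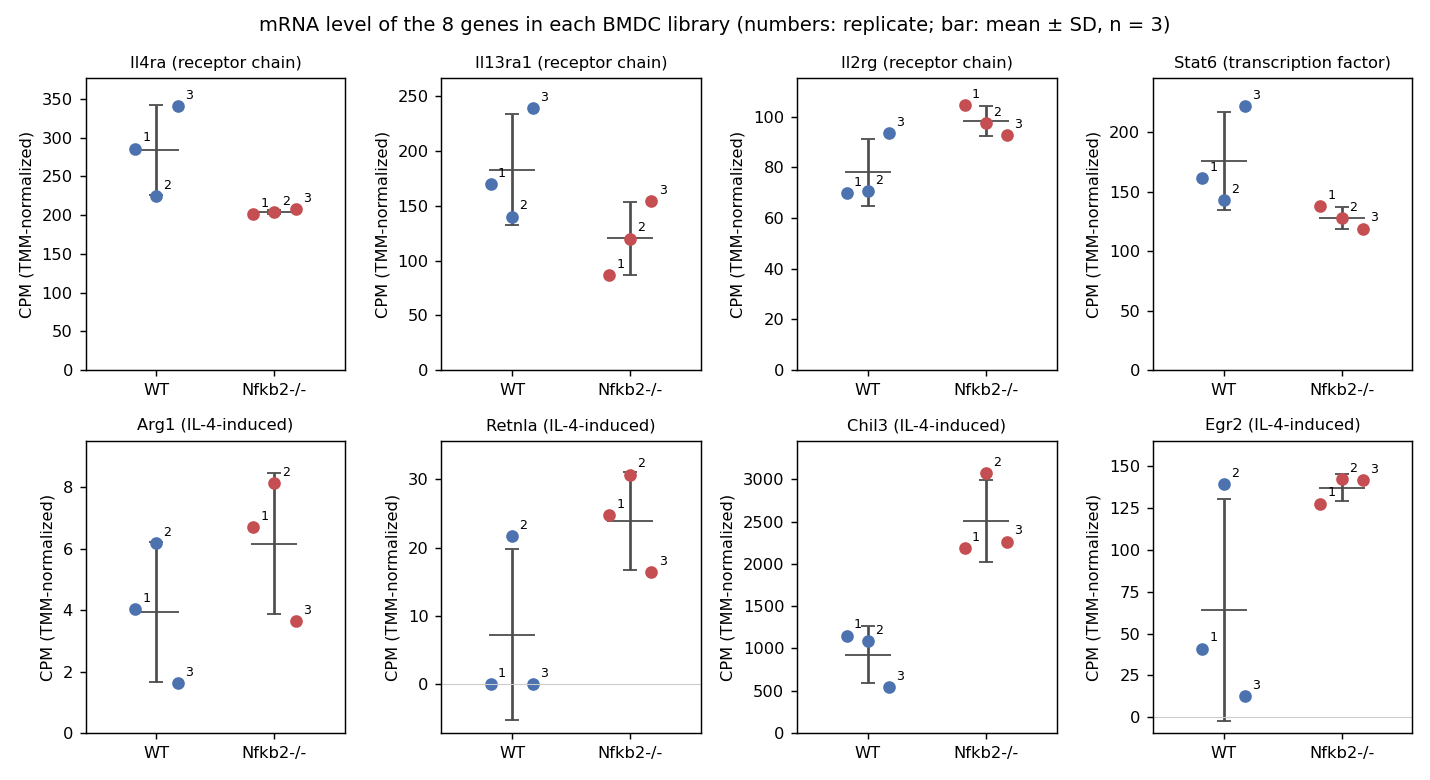
TMM-normalized CPM of each of the 8 genes (y axis, 1 panel per gene) in the 3 WT (blue) and 3 Nfkb2-/- libraries (red), where each point is 1 library with its replicate number and the bars are the mean ± SD (n = 3). Chil3, Il4ra and Stat6 separate the genotypes, whereas WT replicate 2 sits among the Nfkb2-/- libraries for Retnla and Egr2.

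Il4ra (ENSMUSG00000030748; GRCm38, chr7:125552120-125579474, plus strand), which encodes the chain shared by both receptors, measured 286, 225 and 340 CPM in WT replicates 1, 2 and 3. In Nfkb2-/- replicates 1, 2 and 3 it measured 202, 203 and 207 CPM. All 3 Nfkb2-/- libraries lay below the lowest WT library and close to each other. The coefficient of variation was 20.4% in WT, and the Nfkb2-/- libraries spanned 1.03-fold from lowest to highest. Mean levels of 284 ± 57.8 and 204 ± 3.06 CPM (SD, n = 3) made Il4ra 1.39-fold higher in WT by edgeR's estimate. The log2 fold change of -0.47 (SE 0.18, 95% interval -0.90 to -0.05) had an unadjusted p of 0.0327 and missed the threshold over all genes (edgeR adjusted p = 0.239). The exact permutation test of the libraries (two-sided) gave p = 0.1, which is the lowest that 3 against 3 libraries can reach. An antisense gene, Gm44876, shares 571 exonic bases with Il4ra and had 11 to 46 counts per library, against 6173 to 12057 counts for Il4ra. As in any bulk sample, less mRNA per cell and fewer cells of the type that expresses a gene cannot be told apart here.

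Il13ra1 (ENSMUSG00000017057; chrX:36112110-36171259, plus strand), whose product turns the shared chain into a receptor for IL-13 as well, measured 170, 140 and 239 CPM in WT replicates 1, 2 and 3 and 86.6, 120 and 154 CPM in Nfkb2-/- replicates 1, 2 and 3. The genotypes overlapped, since Nfkb2-/- replicate 3 exceeded WT replicate 2. The log2 fold change was -0.61 (SE 0.27, 95% interval -1.25 to 0.04, edgeR adjusted p = 0.322), a WT level 1.52-fold higher by the estimate, and the libraries gave p = 0.2 in the exact permutation test. Il13ra1 and Il2rg are X-linked. Ddx3y, a gene of the Y chromosome, measured 105 to 208 CPM in all 6 libraries, with the lowest value in Nfkb2-/- replicate 1, and Xist 0.112 to 0.857 CPM, with the highest value there. Nfkb2-/- replicate 1 also had the lowest Il13ra1 level of the 6 libraries. Whether the low Il13ra1 level and these marker values go together was not tested.

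Il2rg (ENSMUSG00000031304; chrX:101264378-101268255, minus strand), the common gamma chain gene that the type I receptor shares with the receptors for IL-2, IL-7, IL-9, IL-15 and IL-21, had the opposite sign. It measured 69.9, 70.7 and 93.3 CPM in WT replicates 1, 2 and 3 and 105, 97.3 and 92.8 CPM in Nfkb2-/- replicates 1, 2 and 3. WT replicates 1 and 2 lay below all Nfkb2-/- libraries, and WT replicate 3 reached the lowest of them. The means of 78.0 ± 13.3 and 98.2 ± 5.92 CPM (SD, n = 3) differed by a log2 fold change of 0.33 (SE 0.16, 95% interval -0.05 to 0.72, edgeR adjusted p = 0.361). Gm20489, which shares 728 exonic bases with Il2rg on the same strand, had 0 counts in every library.

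Stat6 (ENSMUSG00000002147; chr10:127642986-127660957, plus strand), the transcription factor downstream of both receptors, measured 161, 143 and 222 CPM in WT replicates 1, 2 and 3 and 138, 128 and 119 CPM in Nfkb2-/- replicates 1, 2 and 3. Every Nfkb2-/- library was below every WT library, although Nfkb2-/- replicate 1 and WT replicate 2 were near each other. The log2 fold change was -0.45 (SE 0.19, 95% interval -0.91 to 0.00, unadjusted p = 0.0503, edgeR adjusted p = 0.294), with p = 0.1 in the exact permutation test. For Il4ra and Stat6 alike, the highest WT value was that of replicate 3, the library with the most mature DC marker mRNA. Without WT replicate 3 the log2 fold changes were -0.32 for Il4ra and -0.25 for Stat6 (edgeR adjusted p = 0.392 and 0.482), and the part of the marker difference in these values was not tested.

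**Figure D2:**
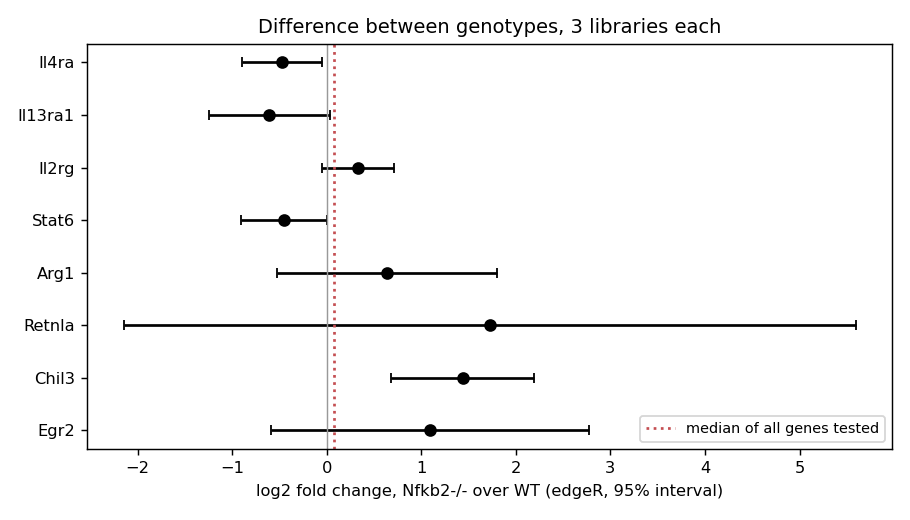
Log2 fold change of each of the 8 genes, Nfkb2-/- over WT (x axis), with points for edgeR's estimates and bars for their 95% intervals (3 libraries per genotype); the dotted red line is the median of all genes tested, 0.08. The intervals of Chil3 and Il4ra leave out 0, and that of Retnla, from -2.14 to 5.60, is the widest.

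To compare the chains with each other, CPM were divided by the exonic length of each gene in kilobases. In WT BMDCs the per-kilobase levels of Il13ra1, Il4ra, Stat6 and Il2rg were 49.3 ± 13.6, 47.3 ± 9.63, 39.9 ± 9.37 and 32.7 ± 5.58 CPM per kilobase (SD, n = 3). Neighbouring means in this order differed by less than the larger of their SDs. Within every WT library, however, Il4ra lay above Stat6 and Stat6 above Il2rg. In Nfkb2-/- BMDCs the order was Il2rg, Il4ra, Il13ra1 and Stat6, at 41.1 ± 2.48, 34.0 ± 0.509, 32.4 ± 9.08 and 29.1 ± 2.13 CPM per kilobase (SD, n = 3). Il2rg stood above Il4ra by more than their spread, and Il4ra lay above Stat6 in every Nfkb2-/- library, whereas Il13ra1 did not differ from either neighbour beyond its spread. By the mean, Il2rg was thus the lowest of the 4 in WT and the highest in Nfkb2-/- BMDCs. This change of order was examined as ratios of per-kilobase levels, which were chosen after the values were seen. Il4ra over Il2rg was 1.63, 1.26 and 1.45 in the WT libraries, in the order of their replicate numbers, and 0.767, 0.831 and 0.889 in the Nfkb2-/- libraries, above 1 in every WT library and below 1 in every Nfkb2-/- library. The means were 1.45 ± 0.182 and 0.829 ± 0.0614 (SD, n = 3), given as a description with no test. Reads in the 728 bases that Il2rg shares with Gm20489 may not have been counted, since the counting tool is unknown. The per-kilobase level of Il2rg could then be too low, so its lowest place in WT and the WT ratios above 1 are uncertain. The separation of the ratios between the genotypes does not depend on the length used.

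Il2rg over Il13ra1, the chain of the type I receptor against that of the type II receptor, was 0.641, 0.784 and 0.608 in the WT libraries and 1.88, 1.26 and 0.937 in the Nfkb2-/- libraries, in the same order. These ratios did not overlap either (means 0.678 ± 0.0938 and 1.36 ± 0.477, SD, n = 3), but spread more widely among Nfkb2-/- libraries. Il4ra over Il13ra1 overlapped between the genotypes, at 0.881 to 1.04 in WT and 0.833 to 1.44 in Nfkb2-/- BMDCs. The ratios describe mRNA and not receptor chains on the cell surface, which were not measured in these files.

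**Figure D3:**
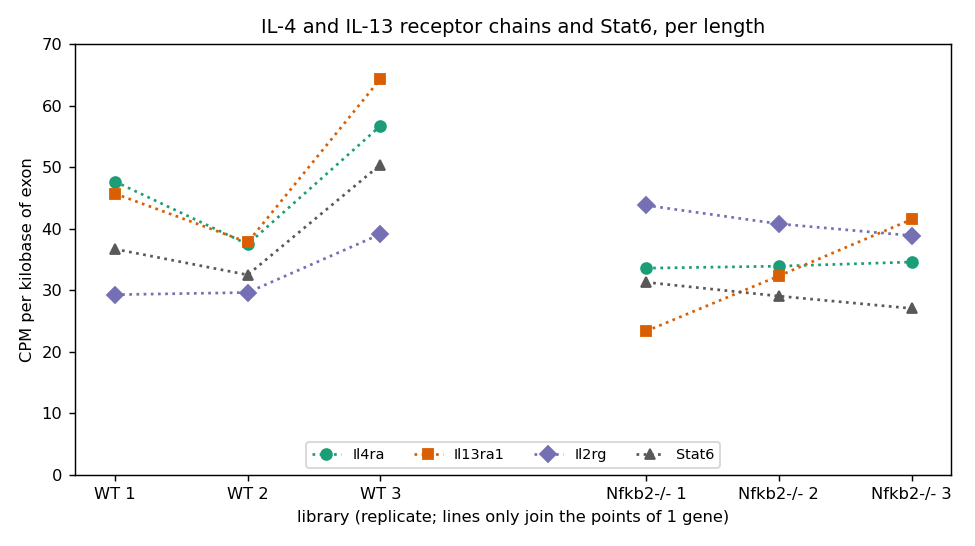
CPM per kilobase of exon (y axis) of Il4ra, Il13ra1, Il2rg and Stat6 in each library (x axis); dotted lines only join the points of 1 gene. Il2rg (purple diamonds) lies below Il4ra (green circles) in all 3 WT libraries and above it in all 3 Nfkb2-/- libraries. Il2rg levels could be too low if reads in the bases shared with Gm20489 were not counted.

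Other genes of IL-4 and IL-13 signaling gave 0 calls in either direction among 24 tested of 26 listed, beside 1.14% of all genes. At an unadjusted p-value under 0.05 there were 4, beside 17.1% of all genes. The median log2 fold change of the 24 was -0.05, beside 0.08 for all genes tested. DESeq2 called 2 of them, Parp14 and Pik3r1, and limma voom called 0. Pik3r1, which encodes the regulatory p85α subunit of PI3-kinase, had the smallest p of the list, at 1013 ± 173 CPM in WT and 646 ± 64.4 CPM in Nfkb2-/- BMDCs (SD, n = 3) without overlap (log2 fold change -0.65, edgeR adjusted p = 0.147). The Janus kinase genes Jak2 and Jak1 differed by -0.09 and -0.12 on the log2 scale (edgeR adjusted p = 0.883 and 0.766), and Crebbp, a coactivator gene, by -0.39 (adjusted p = 0.307). Il4 mRNA lay between 0.524 and 1.49 CPM. The ligand Il13 and the decoy receptor Il13ra2 had too few counts to be tested.

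Of 7 genes listed as partner receptors of the common gamma chain, 1 was called higher and 1 lower, beside 0.453% and 0.682% of all genes. The list holds Crlf2, the TSLP receptor chain, which pairs with the IL-7 receptor alpha chain and not with the common gamma chain, and which was not called. Il2ra, which encodes the IL-2 receptor alpha chain CD25, rose from 80.6 ± 23.3 CPM in WT to 218 ± 28.5 CPM in Nfkb2-/- BMDCs (SD, n = 3; log2 fold change 1.43, SE 0.25, edgeR adjusted p = 0.0491). Il15ra, which encodes the chain that presents IL-15, fell from 93.0 ± 23.2 to 38.0 ± 1.68 CPM (SD, n = 3; log2 fold change -1.29, SE 0.20, edgeR adjusted p = 0.0420) and is also 1 of the 9 mature DC markers. Il7r and Il21r were not called (log2 fold changes -0.83 and 0.39, edgeR adjusted p = 0.143 and 0.380).

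Chil3 (ENSMUSG00000040809; chr3:106147554-106167564, minus strand), whose product Ym1 is secreted by alternatively activated macrophages and other myeloid cells, was the most abundant of the 8 genes, and its mean CPM ranked 36 among all genes tested. It measured 1151, 1084 and 539 CPM in WT replicates 1, 2 and 3. In Nfkb2-/- replicates 1, 2 and 3 it measured 2188, 3072 and 2265 CPM. Every Nfkb2-/- library exceeded the highest WT library, and WT replicate 3 was the lowest. The means were 925 ± 336 and 2508 ± 489 CPM (SD, n = 3), 2.71-fold higher in Nfkb2-/- BMDCs by edgeR's estimate (log2 fold change 1.44, SE 0.32, 95% interval 0.68 to 2.19). The unadjusted p was 0.00260 and the adjusted p 0.0879 from edgeR, above the threshold for a call, and the exact permutation test gave p = 0.1. With DESeq2 the adjusted p was 4.05e-04. Without WT replicate 3 and Nfkb2-/- replicate 1 together, a choice made after the data were seen, Chil3 was the 1 gene of the 8 called (log2 fold change 1.24, edgeR adjusted p = 0.0332), where 4.85% of all genes were called. Of the 50-base words in the exons of Chil3, 16.9% also occur in Chil4, a close relative whose level was 0.0688 to 0.739 CPM, and 0 occur in Chil1, Chil5 or Chil6.

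The rest of the chitinase-like and chitinase family had 0 calls among 4 tested of 7 listed by edgeR. At an unadjusted p-value under 0.05 there was 1, beside 17.1% of all genes. That gene was Chid1, a chitinase domain gene, at 10.9 ± 1.30 CPM in WT and 15.9 ± 1.01 CPM in Nfkb2-/- BMDCs (SD, n = 3) without overlap (log2 fold change 0.55, edgeR adjusted p = 0.159). Chil1 and Chil5 had log2 fold changes of -0.98 and -0.05 and Chil4 one of 1.49 at these low levels (edgeR adjusted p = 0.488, 0.978 and 0.461).

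Retnla (ENSMUSG00000061100; chr16:48842551-48844461, plus strand), which encodes the secreted protein RELMα, had 2, 705 and 0 counts in WT replicates 1, 2 and 3 and 839, 930 and 877 counts in Nfkb2-/- replicates 1, 2 and 3. As CPM these were 0.0474, 21.7 and 0 in WT and 24.8, 30.7 and 16.4 in Nfkb2-/- libraries. WT replicates 1 and 3 were at or near 0 whereas WT replicate 2 lay within the range of the Nfkb2-/- libraries, so that the WT libraries did not share 1 level. For WT replicate 3, a count of 0 allows up to 3 counts, or 0.103 CPM. WT replicates 1 and 3 together held 2 counts, 0.0281 CPM (95% exact Poisson interval 0.00340 to 0.101, for counting error only), and the Nfkb2-/- mean of 23.9 ± 7.16 CPM (SD, n = 3) was 853 times this level (236 to 7041 from the same counting interval). This ratio leaves out WT replicate 2, a choice made after the values were seen, and its interval does not cover the spread between cultures. Over all 3 WT libraries the mean was 7.25 ± 12.5 CPM (SD, n = 3), and the log2 fold change of 1.73 (SE 1.65, edgeR adjusted p = 0.633) could not be told from 0.

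This gene's estimate depended on the method more than that of any other of the 8. limma voom gave a log2 fold change of 6.44 (adjusted p = 0.107), and edgeR without WT replicate 2 gave 9.59 (adjusted p = 0.00567), a fitted value that depends on the prior count and is no bound. Without a filter other than 1 count, edgeR's adjusted p was 1.24e-06 at a log2 fold change of 1.65. Across 14 alternatives the adjusted p ran up to 0.804. None of the 50-base words in its exons occur in Retn, Retnlb or Retnlg. Of the resistin family, Retnlg and Retn were tested with 0 calls and Retnlb was not tested. Retnlg measured 2.51, 4.06 and 0.344 CPM in WT and 0.561, 0.330 and 0.674 CPM in Nfkb2-/- replicates 1, 2 and 3, overlapping (log2 fold change -2.13, edgeR adjusted p = 0.236). Retn, with the smallest p of the family, stayed below 1 CPM everywhere (log2 fold change 3.38, edgeR adjusted p = 0.214).

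Egr2 (ENSMUSG00000037868; chr10:67535475-67542188, plus strand), an early growth response transcription factor, measured 41.0, 139 and 12.8 CPM in WT replicates 1, 2 and 3. In Nfkb2-/- replicates 1, 2 and 3 it measured 128, 142 and 141 CPM. As with Retnla, WT replicate 2 lay within the Nfkb2-/- range and WT replicates 1 and 3 lay below it. The coefficient of variation was 103% among WT and 5.99% among Nfkb2-/- libraries, and the means of 64.3 ± 66.2 and 137 ± 8.21 CPM (SD, n = 3) gave a log2 fold change of 1.09 (SE 0.72, edgeR adjusted p = 0.487). Without WT replicate 2 the log2 fold change was 2.34 (edgeR adjusted p = 0.0472). In that fit Egr2 and Retnla were the 2 genes of the 8 called, where 5.87% of all genes were. With no filter beyond 1 count, the 3 called were Chil3, Egr2 and Retnla, where 3.5% of all genes were.

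Of the EGR family and its NAB corepressors, 0 of 5 were called. An unadjusted p-value under 0.05 was found for 1, Nab2 (log2 fold change 0.60, edgeR adjusted p = 0.228), beside 17.1% of all genes. Egr1 measured 32.9, 95.2 and 7.85 CPM in WT and 77.3, 42.0 and 57.4 CPM in Nfkb2-/- replicates 1, 2 and 3 (log2 fold change 0.38, edgeR adjusted p = 0.831). Egr3 measured 5.36, 18.6 and 0.895 CPM in WT and 12.1, 10.7 and 13.5 CPM in Nfkb2-/- replicates 1, 2 and 3 (log2 fold change 0.54, edgeR adjusted p = 0.776). Both, like Egr2, were highest in WT replicate 2 and lowest in WT replicate 3 among WT libraries. Nab1 measured 82.9 ± 10.7 CPM in WT and 66.8 ± 9.40 CPM in Nfkb2-/- BMDCs (SD, n = 3).

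Arg1 (ENSMUSG00000019987; chr10:24915221-24927484, minus strand), the enzyme that splits arginine into ornithine and urea, was the lowest of the 4 IL-4-induced genes per kilobase. It measured 4.03, 6.18 and 1.62 CPM in WT replicates 1, 2 and 3 and 6.71, 8.14 and 3.65 CPM in Nfkb2-/- replicates 1, 2 and 3, from 47 to 247 counts per library. The genotypes overlapped, with the highest value in Nfkb2-/- replicate 2 and the lowest in WT replicate 3. The log2 fold change was 0.64 (SE 0.50, 95% interval -0.53 to 1.80, edgeR adjusted p = 0.555; exact permutation p = 0.4).

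In arginine and polyamine metabolism around Arg1, 15 of 17 listed genes were tested. Of these 0 were called higher and 1 lower, beside 0.453% and 0.682% of all genes. An unadjusted p-value under 0.05 was found for 7, beside 17.1% of all genes. The median log2 fold change was 0.43, beside 0.08 for all genes tested. The gene called was Smox, spermine oxidase, which fell from 49.0, 33.5 and 41.7 CPM in WT replicates 1, 2 and 3 to 15.6, 19.0 and 17.2 CPM in Nfkb2-/- replicates 1, 2 and 3 (log2 fold change -1.26, SE 0.19, edgeR adjusted p = 0.0413). Of the 15 genes, 5 were higher and 3 lower without overlap, beside 12.7% and 12.0% of all genes. Ass1, which makes the precursor of arginine, and Odc1, which turns ornithine into putrescine, had higher values without overlap but were not called (log2 fold changes 0.69 and 0.66, edgeR adjusted p = 0.193 and 0.118). Asl, taken up after its values were seen, was lower without overlap and not called (log2 fold change -0.53, edgeR adjusted p = 0.296). The arginine transporter gene Slc7a2 and the polyamine acetyltransferase gene Sat1 had log2 fold changes of 0.53 and -0.12 (edgeR adjusted p = 0.451 and 0.735). Arg2, the mitochondrial arginase, and Nos2, the enzyme that competes for arginine, were taken up after their values were seen. Arg2 measured 4.62 ± 1.39 CPM in WT and 1.81 ± 0.370 CPM in Nfkb2-/- BMDCs without overlap (SD, n = 3; log2 fold change -1.36, edgeR adjusted p = 0.0910), opposite in sign to Arg1. Nos2 stayed at 0.344 to 3.16 CPM.

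Per kilobase, the 4 IL-4-induced genes spanned a wide range. In WT BMDCs the order was Chil3, Egr2, Retnla and Arg1, at 567 ± 206, 18.9 ± 19.5, 12.1 ± 20.9 and 1.77 ± 1.03 CPM per kilobase (SD, n = 3), where Egr2 and Retnla did not differ beyond their spread. In Nfkb2-/- BMDCs the same order held, at 1537 ± 300, 40.3 ± 2.42, 40.0 ± 12.0 and 2.77 ± 1.03 CPM per kilobase (SD, n = 3), again with Egr2 and Retnla within their spread. Within WT, replicate 3 had the lowest level of all 4 induced genes and the highest level of Il4ra, Il13ra1, Il2rg and Stat6. In WT replicate 2 this was turned round for several genes, with the highest WT levels of Arg1, Retnla and Egr2 and the lowest of Il4ra, Il13ra1 and Stat6. Among all 6 libraries, Nfkb2-/- replicate 2 had the highest level of each of the 4 induced genes. Replicates of 1 genotype have no order, and these positions are descriptions without a test.

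**Figure D4:**
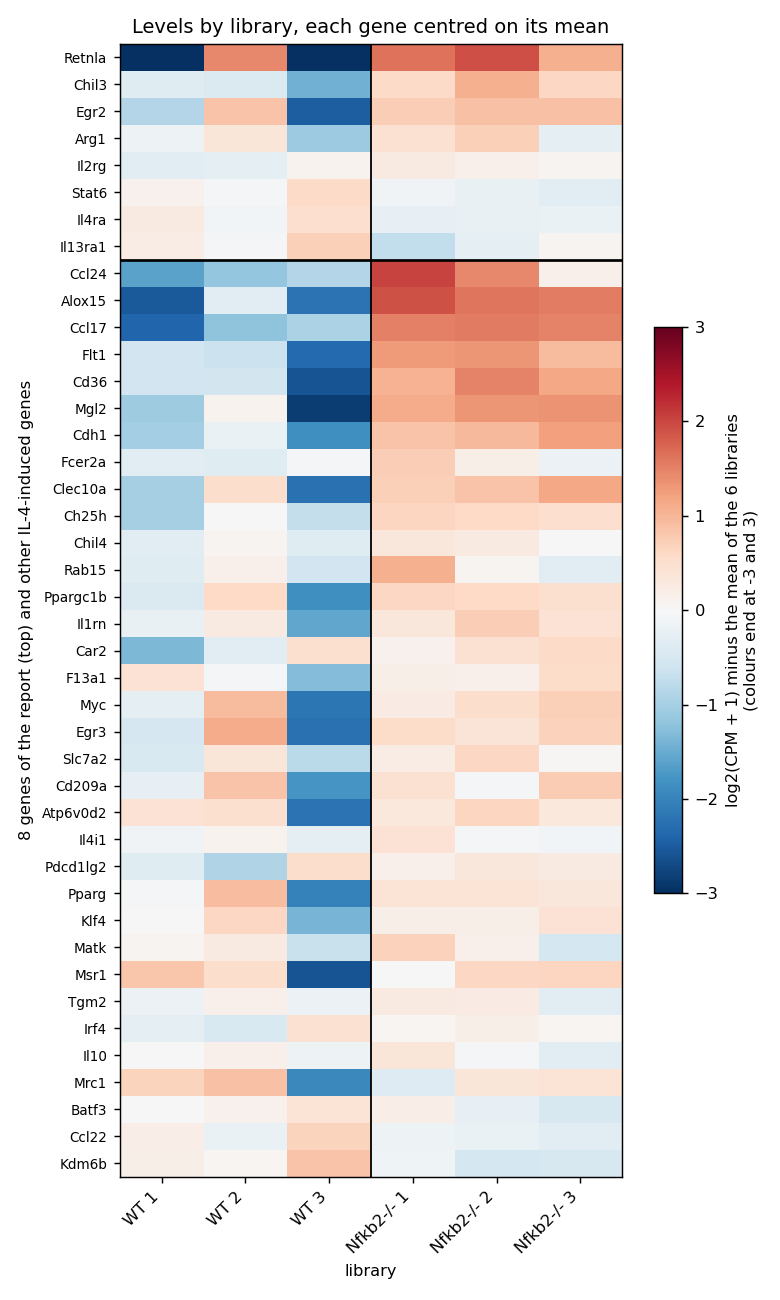
log2(CPM + 1) of each gene minus its own mean over the 6 libraries (color, ending at -3 and 3), with 1 row per gene, the 8 genes above the line and 34 other IL-4-induced genes below it, ordered by log2 fold change, and 1 column per library. WT replicate 3 has the lowest WT value for all 4 induced genes of the upper block and for 22 of the 34 below.

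Marker genes of cell types and states were set beside these values as a description. Summed mature DC marker levels were 12702, 9484 and 18423 CPM in WT replicates 1, 2 and 3 and 9424, 9404 and 8850 CPM in Nfkb2-/- replicates 1, 2 and 3. These sums were lower in every Nfkb2-/- library, as were Il4ra and Stat6, but WT replicate 2 was near the Nfkb2-/- libraries. Ccl22, at 5357 to 10728 CPM with overlap between the genotypes, was the largest part of each sum. Of these 9 markers, 7 had lower and 2 higher estimates in Nfkb2-/- BMDCs, and 1, Il15ra, was called, beside 1.14% of all genes. An unadjusted p-value under 0.05 was found for 6, beside 17.1% of all genes. The median log2 fold change was -0.67, beside 0.08 for all genes tested. Fscn1, Cd83 and Ccr7 had log2 fold changes of -1.49, -1.12 and -0.97 (edgeR adjusted p = 0.0902, 0.150 and 0.235). Summed macrophage and monocyte marker levels were 1331, 1877 and 236 CPM in WT replicates 1, 2 and 3 and 1099, 1372 and 1624 CPM in Nfkb2-/- replicates 1, 2 and 3, lowest where the 4 induced genes were lowest. Of the 12 markers 0 were called, with 6 higher and 6 lower estimates in Nfkb2-/- BMDCs. All 6 tested eosinophil markers had higher mean values in Nfkb2-/- BMDCs with 0 called, and their sums were 22.6, 70.6 and 10.7 CPM in WT and 93.4, 109 and 91.2 CPM in Nfkb2-/- libraries. Epx, the eosinophil peroxidase gene, lay at 1.65 to 9.10 CPM in the 6 libraries. The order of WT replicates 2, 1 and 3 in these sums was that of Retnla counts, Egr2 and Arg1, whereas Chil3 was highest in WT replicate 1. All 4 proliferation markers were higher without overlap, beside 12.7% of all genes, and 0 were called. Their sums were 108, 342 and 51.0 CPM in WT and 401, 624 and 701 CPM in Nfkb2-/- libraries. Neutrophil markers summed to 88.3 to 255 CPM with 0 of 9 called, but their members went in different directions, with Cxcr2 at 5.90 ± 5.48 CPM in WT and 83.2 ± 15.7 CPM in Nfkb2-/- BMDCs (SD, n = 3, log2 fold change 3.82, edgeR adjusted p = 0.0568) and Ngp at 56.4 ± 33.6 and 16.1 ± 4.70 CPM (SD, n = 3, log2 fold change -1.81, edgeR adjusted p = 0.147). Mast cell and basophil markers summed to 46.6 to 58.2 CPM with 1 of 7, Cpa3, called lower, beside 0.682% of all genes. The part of these cells in the levels of the 8 genes was not tested.

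The other IL-4 and STAT6-induced genes, a list of 36 that includes the mannose receptor gene Mrc1 and the lectin genes Clec10a and Mgl2, gave 34 tested genes. Of these 1 was called higher and 0 lower, beside 0.453% and 0.682% of all genes. By the estimates 30 were higher and 4 lower, beside 55.7% of all genes on the higher side. Of the 34, 9 had an unadjusted p-value under 0.05, beside 17.1% of all genes, and 10 were higher and 1 lower without overlap, beside 12.7% and 12.0%. The median log2 fold change was 0.55, beside 0.08 for all genes tested. The gene called was Ccl17, the chemokine TARC that recruits CCR4-bearing T cells. It measured 161, 361 and 432 CPM in WT replicates 1, 2 and 3 and 2385, 2472 and 2357 CPM in Nfkb2-/- replicates 1, 2 and 3. The groups were far apart, at 318 ± 140 and 2405 ± 60.2 CPM (SD, n = 3), and Ccl17 rose by 2.92 on the log2 scale (SE 0.37, edgeR adjusted p = 0.0307). Unlike the 4 induced genes above, Ccl17 was highest among WT libraries in replicate 3. Its call was lost with WT replicate 1 or any Nfkb2-/- library left out (adjusted p up to 0.163 from edgeR), at log2 fold changes from 2.60 to 2.94 in those fits.

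Ccl22, the other CCR4 ligand and the most abundant gene of that list, measured 7787, 5890 and 10728 CPM in WT and 6072, 5826 and 5357 CPM in Nfkb2-/- replicates 1, 2 and 3, overlapping and with the opposite sign (log2 fold change -0.50, edgeR adjusted p = 0.404). Irf4, a transcription factor gene of IL-4-conditioned cells, had a log2 fold change of 0.14 (edgeR adjusted p = 0.825). Cd36, a scavenger receptor gene, measured 301, 305 and 73.9 CPM in WT and 929, 1258 and 1007 CPM in Nfkb2-/- replicates 1, 2 and 3 without overlap (log2 fold change 2.23, edgeR adjusted p = 0.0908). Like Chil3, it was lowest in WT replicate 3 and was not called. Mrc1, a widely used surface marker of alternative activation, was taken up after its values were seen, and its values overlapped, at 174 ± 121 CPM in WT and 159 ± 44.4 CPM in Nfkb2-/- BMDCs (SD, n = 3; log2 fold change -0.13, edgeR adjusted p = 0.937). The lectin genes Mgl2 and Clec10a, also taken up after their values were seen, went the other way. Both were higher in Nfkb2-/- BMDCs without overlap and were not called (log2 fold changes 2.09 and 1.51, edgeR adjusted p = 0.162 and 0.347).

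Genes of classical activation, the program set against the IL-4 program in macrophages, gave 14 tested genes of 15. Of these 0 were called higher and 1 lower, beside 0.453% and 0.682% of all genes. An unadjusted p-value under 0.05 was found for 8, beside 17.1% of all genes. By the estimates 9 of the 14 were higher and 5 lower. Without overlap 5 were higher and 3 lower, beside 12.7% and 12.0% of all genes. The median log2 fold change was 0.16, beside 0.08 for all genes tested. Il12b, the p40 subunit gene, fell from 98.6 ± 61.1 to 11.6 ± 1.86 CPM (SD, n = 3; log2 fold change -3.09, edgeR adjusted p = 0.0489). Irf5 and Ccl5 did not overlap and were not called, with opposite signs (log2 fold changes 0.62 and -1.52, edgeR adjusted p = 0.104 and 0.101). Cd80 and Cd86, which are also mature DC markers, had log2 fold changes of 0.02 and 0.58 (edgeR adjusted p = 0.981 and 0.284).

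For the 4 induced genes, whose highest and lowest libraries differed by more than 4-fold, the genes with the most similar pattern over the 6 libraries were found among 10645 genes by the root mean square difference of log2 CPM, each gene centred on its own mean. Chil3 was closest to Dhx58 and Ifit1, at 0.138 and 0.185 log2 units, and Egr2 to Gapt and Ccnf, at 0.120 and 0.163. Arg1 was closest to Gm5431 and Trim16, at 0.250 and 0.281. Retnla had no close match, with Car4 and Rnase2a at 1.39 and 1.64 log2 units. Car4 measured 0.0474, 15.7 and 0.585 CPM in WT and 23.8, 23.4 and 23.4 CPM in Nfkb2-/- replicates 1, 2 and 3, so that it too was at Nfkb2-/- levels in WT replicate 2 and near 0 in WT replicates 1 and 3. These are descriptions over 6 libraries that share depth and genotype, and no test belongs to them.

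The windows upstream of the 8 genes and of Ccl17, the called gene among the other IL-4-induced genes, were read for STAT6 motifs, since STAT6 prefers a spacing of 4 bases between the arms TTC and GAA, whereas other STATs often bind with 3. RefSeq promoter windows (GRCm38.p6, 250 bases upstream of each start) were found for 7 of the 8 genes, 11 windows in all, at RefSeq starts that can differ from the Ensembl starts above. The 3 windows shown are those of Retnla (chr16:48842359-48842608, plus strand), Chil3 (chr3:106167565-106167814, minus strand) and Ccl17 (chr8:94810203-94810452, plus strand), the IL-4-induced genes among those searched whose window held a STAT motif. Capitals mark TTCNNNNGAA or TTCNNNGAA, searched on both strands.
Retnla: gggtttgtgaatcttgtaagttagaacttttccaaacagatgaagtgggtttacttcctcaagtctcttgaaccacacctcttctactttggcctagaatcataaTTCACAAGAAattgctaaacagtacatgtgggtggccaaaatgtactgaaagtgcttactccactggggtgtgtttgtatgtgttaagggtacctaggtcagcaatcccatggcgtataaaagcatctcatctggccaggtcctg
Chil3: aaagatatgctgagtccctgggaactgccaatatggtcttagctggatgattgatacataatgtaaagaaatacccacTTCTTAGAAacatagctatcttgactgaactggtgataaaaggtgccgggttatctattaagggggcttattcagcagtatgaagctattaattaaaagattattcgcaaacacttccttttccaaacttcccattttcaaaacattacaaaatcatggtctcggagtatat
Ccl17: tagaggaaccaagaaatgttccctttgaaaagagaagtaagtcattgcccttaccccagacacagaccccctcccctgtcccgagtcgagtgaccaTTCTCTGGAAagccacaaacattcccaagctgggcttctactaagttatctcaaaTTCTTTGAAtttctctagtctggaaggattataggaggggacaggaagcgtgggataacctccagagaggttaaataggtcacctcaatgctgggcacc
The Retnla window holds TTCACAAGAA, of the 4-base spacing, whose first base is 145 bases before the start. In the Chil3 window there is TTCTTAGAA, of the 3-base spacing, 172 bases before the start. The Ccl17 window holds both kinds, TTCTCTGGAA at 154 bases and TTCTTTGAA at 99 bases before the start. Over 32851 promoter windows of the same length, 5.85% hold TTCNNNNGAA, 7.02% hold TTCNNNGAA and 7.25% hold the NF-κB consensus. In 1 of the Egr2 windows the NF-κB consensus was matched at 117 and 116 bases before the start, overlapping matches on a near-palindrome, and the windows of Il4ra, Il13ra1, Il2rg and Stat6 held none of the 3 motifs. A match describes the letters of this window and not the binding of a factor, and STAT6 or p52 binding was not measured in these files.

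**Figure D5:**
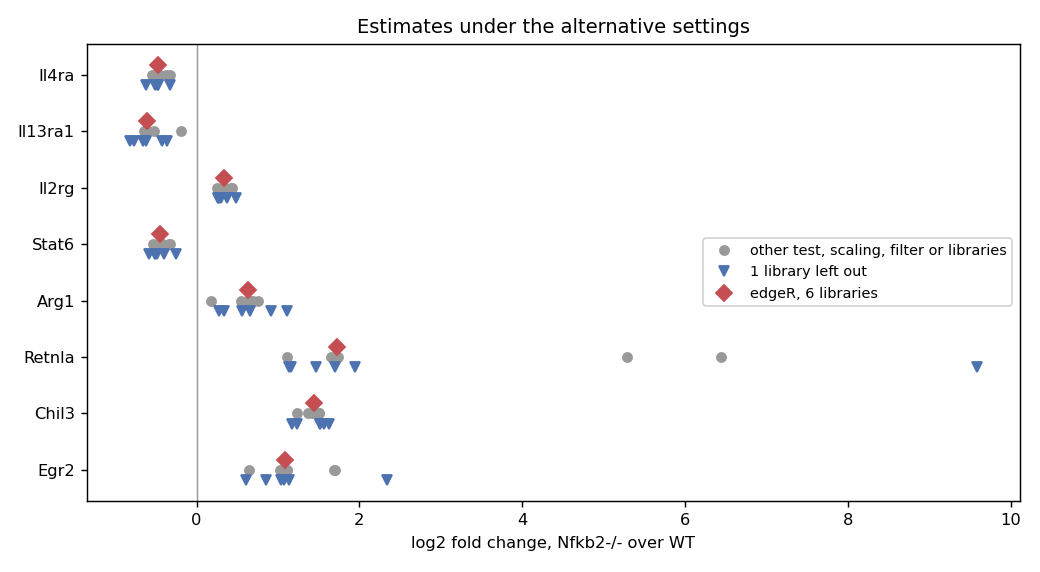
Log2 fold change, Nfkb2-/- over WT (x axis), of the 8 genes from edgeR on 6 libraries (red diamonds), with 1 library left out (blue triangles) and with another test, scaling, filter or set of libraries (gray circles). All estimates of a gene lie on 1 side of 0, those of Chil3 between 1.17 and 1.63, and those of Retnla between 1.11 and 9.59.

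Across the alternative tests, scalings, filters and sets of libraries, none of the 8 genes changed sign. The log2 fold change of Il4ra lay between -0.62 and -0.32 with adjusted p-values from 0.0772 to 0.619, and that of Stat6 between -0.58 and -0.25 with adjusted p-values from 0.140 to 0.597. Il13ra1 ranged from -0.82 to -0.19 and Il2rg from 0.25 to 0.48. Arg1 ranged from 0.18 to 1.11 and was not called in any alternative, whereas Chil3, Egr2 and Retnla were called in some, as given above. All calls given here from edgeR with 6 libraries depended on WT replicate 1 and on each Nfkb2-/- library. With any 1 of these left out edgeR called 0 of all genes, where 2325 to 4088 genes had an unadjusted p-value under 0.05. Without WT replicate 2 it called 1248 genes and without WT replicate 3 it called 270. Smox was also lost without WT replicate 3, at adjusted p-values up to 0.200 over its alternatives (edgeR).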

How the data were processed

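The deposited files hold counts of reads per Ensembl gene, 1 file per library, which the authors made and deposited as whole numbers without normalization. The submitters' processing notes name HISAT2 and GRCm38. The counting tool, its annotation and its use of strand are not given in the sources used here, so that counts of overlapping genes are uncertain. A deposited table joining the libraries was not used. Genotype and replicate came from the labels, and the study describes independent biological replicates.

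Names and exonic lengths came from GENCODE M21, which names 52073 of 56748 IDs. The other IDs held 1.01% to 1.75% of a library's counts and stayed out of library sizes and tests. A gene was tested if its counts summed to 50 or more. Genotypes were compared with edgeR 4.0.16 in R 4.3.3 (TMM, glmQLFit and glmQLFTest, no covariates, common dispersion 0.219), with Benjamini-Hochberg adjustment over 21849 genes. The standard error is the size of the log2 fold change divided by the square root of F. Depth was 29863927 to 55623068 counts per library.

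The alternatives were DESeq2 1.42.0 (the study's tool), limma 3.58.1 (voom), other scalings and filters, a replicate block, each library left out in turn and, chosen after the data were seen, the fit without WT replicate 3 and Nfkb2-/- replicate 1. The code of the fits was checked on simulated counts with a lower dispersion than these data and no library that stood apart. That check does not show how reliable the calls are. Genes named from a list are its 4 most abundant tested genes, those called and the 1 with the smallest p. Genes outside this rule are described in the text as taken up after their values were seen, apart from Nfkb2, marker genes, overlapping or related genes, undetected or ligand genes, Crlf2, genes that alternatives called and sex-linked genes. The 8 genes and all lists were chosen with earlier results of these data known. Promoter windows came from RefSeq (GRCm38.p6).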

Additional observations from a re-analysis of the deposited data

How the results depend on the processing

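No alternative reversed the sign of any of the 8 genes, of Ccl17 or of Smox. Counts of calls did depend on the setting, and the cause was not tested. Of the 8 genes 0 were called with 6 libraries by edgeR, 1 by DESeq2, 3 with no filter beyond 1 count, 0 to 2 with 1 library left out, and 1 without WT replicate 3 and Nfkb2-/- replicate 1, a choice made after the data were seen. For IL-4 and IL-13 signaling genes the count was 0, with 2 by DESeq2, 2 with no filter, 0 to 1 with 1 library left out and 1 without both libraries. For the other IL-4-induced genes it was 1, with 9 by DESeq2, 4 by limma voom, 2 with filterByExpr, 9 with no filter, 3 with at least 10 counts in every library (a filter that Retnla did not pass), 0 to 6 with 1 library left out and 6 without both libraries. For arginine and polyamine metabolism it was 1, with 6 by DESeq2, 3 by limma voom, 5 with no filter, 2 with at least 10 counts in every library and 0 to 5 with 1 library left out. Over all genes 248 were called, with 1890 by DESeq2, 488 by limma voom, 397 with filterByExpr, 1625 with no filter, 459 with at least 10 counts in every library, 0 to 1248 with 1 library left out and 908 without both libraries. Leaving out WT replicate 2 gave the highest count with 1 library left out in each of these groups except signaling, where leaving out WT replicate 2 or 3 gave the same. With no filter the median log2 fold change of all genes was 0.60, against 0.08.

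With the replicate number as a block, 0 of all genes were called (3331 at an unadjusted p-value under 0.05), and so 0 of the 8, of the IL-4-induced and of the arginine genes. With the block, 5 of the 8 genes had an unadjusted p-value under 0.05 (edgeR), against 2 without it, and over all genes 3331 against 3730. Deviations of same-numbered WT and Nfkb2-/- libraries correlated at 0.26, 0.15 and 0.02. WT replicate 2 correlated slightly better with Nfkb2-/- replicate 3 (0.16), whereas the other WT libraries correlated best with their same-numbered library. With 3 libraries per genotype, these correlations cannot decide whether same-numbered libraries were paired. Arg1 had the lowest mean CPM of the 8 genes, from 47 to 247 counts per library, with a coefficient of variation of 57.9% in WT, and depth as a cause of its spread was not tested.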
